A study of Mus musculus with 4 samples.

Results

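RUVBL2 peaks were examined at 10 genes that encode sequence-specific factors of housekeeping promoters: Nfya, Nfyb, Nfyc, Nrf1, Sp1, Sp3, Gabpa, Creb1, Atf1 and Elk1. The genes were listed as factors known to bind such promoters. The positions, widths, summit agreement and ranks of these same peaks were in view when the genes were chosen. They count as selected on those values, so the peaks are described and carry no test. All 10 were found among the 21779 protein-coding genes of the gene table. A peak was counted for a gene when it overlapped the gene body or the 3 kb beyond either gene end. RUVBL2 is an AAA+ ATPase that works with RUVBL1 in chromatin remodelling, histone acetylation and chaperone complexes. Its chromatin was profiled by immunoprecipitation and sequencing in whole hypothalamus of wild-type (WT) male C57BL/J mice aged 8 weeks, fixed for 10 min in 1% formaldehyde. There were 2 RUVBL2 ChIP libraries and 2 input libraries, numbered 1 and 2; the peak names in the list of the ChIP library titled Hyp2 begin with Hyp3, and that list was taken as replicate 2 by its sample record. No label ties a number to an animal, so the spread between libraries may be technical. The inputs were not analysed here, and the tissue label could not be checked against marker genes, since peak lists hold no expression values.

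NF-Y is a trimer of NF-YA, NF-YB and NF-YC that binds the CCAAT box. SP1 and SP3 are zinc finger proteins of GC boxes, NRF1 binds a GC-rich palindrome at many nuclear genes of mitochondrial function, and GABPA and ELK1 share the ETS domain. CREB1 and ATF1 are leucine zipper proteins that bind the cAMP response element, and CREB1 is well known for activity-dependent transcription in neurons. Most of these factors are made in nearly all cell types.

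Replicate 1 listed 3943 peaks and replicate 2 listed 6403. Overlapping peaks of the lists, joined, formed 3111 shared regions. Each deposited fold enrichment is the authors' value for the peak summit: the reads piled up there over the background that the peak caller estimated, with 1 read added to each. From the fold and the deposited p, the median summit was found to rest on 16 reads in replicate 1 and 22 in replicate 2. The lowest background was 2.24 and 2.65 reads. Ranks are by p within a list, from 1 for the smallest p, with ties given the best rank. Intervals in parentheses after a fold are exact 95% Poisson intervals of the pileup; they cover counting error only, as amplified reads are not independent molecules.

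Of the 10 genes, 8 held a shared region (Nfya, Nfyc, Nrf1, Sp1, Sp3, Gabpa, Creb1 and Atf1), while 17.3% of protein-coding genes did. Replicate 1 listed peaks at 9 of them (21.0% of protein-coding genes) and replicate 2 at 8 (32.8%). Nfyb held a peak in replicate 1 alone, and Elk1 in neither list. There were 23 peaks in all, 12 in replicate 1 and 11 in replicate 2, and 21 of them fell in 9 shared regions, since Nfya had a pair of regions. Because the genes were listed with these peaks known, the counts are not read against the background. In each of the 8 genes a summit of each list lay within 1 kb of the same listed transcription start, which was so for 15.7% of the 17492 protein-coding genes with a listed start.

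**Figure D1:**
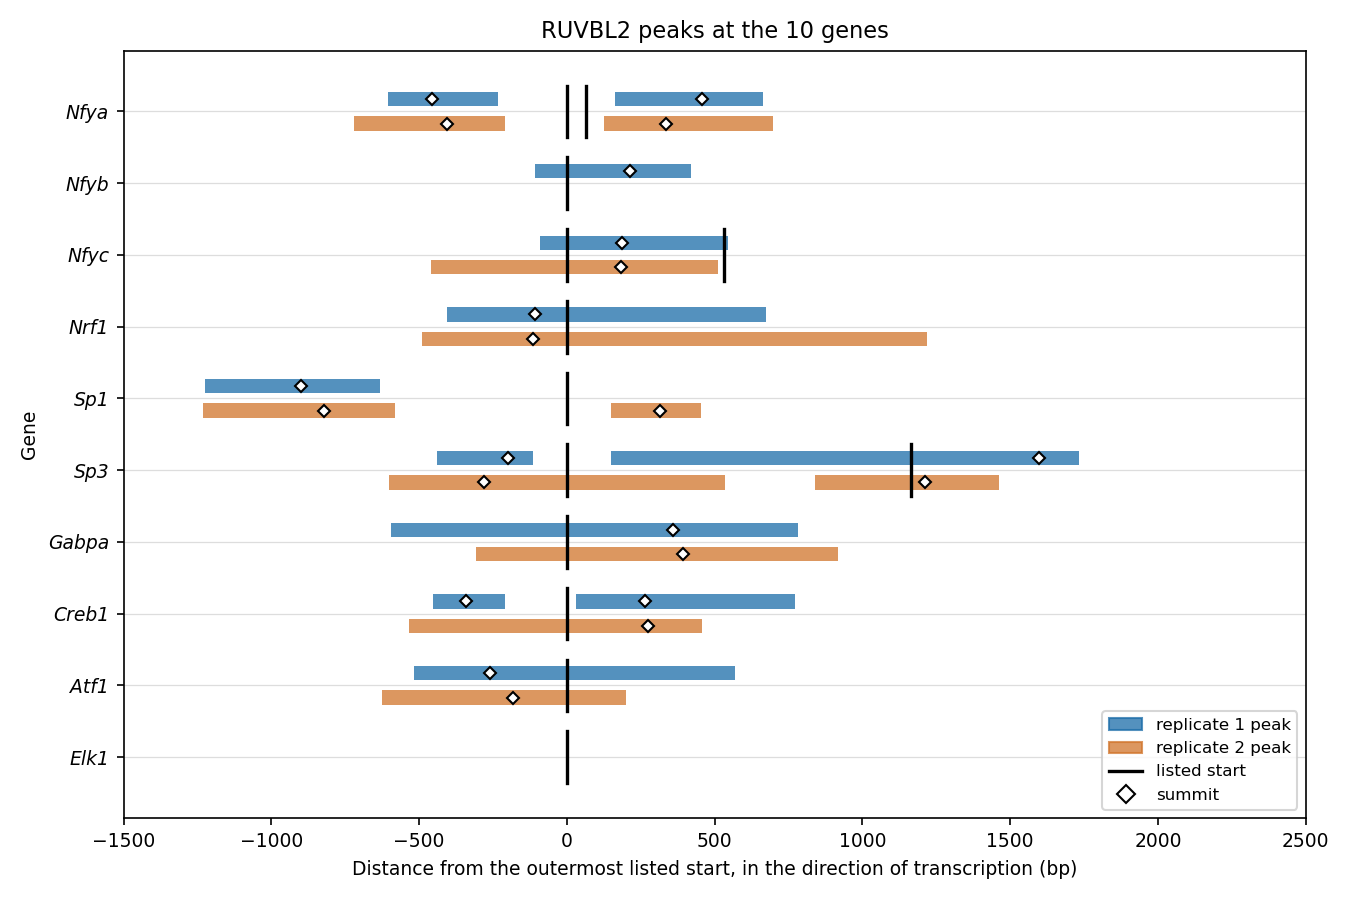
Peaks of replicate 1 (blue) and replicate 2 (orange) at the 10 genes, drawn along the distance in bp from the outermost listed start of each gene in the direction of transcription; diamonds are summits and black lines are listed starts. The summits of Nfyc and Nrf1 nearly coincide, the strongest of Sp1 lie 899 and 823 bp upstream with a further one of replicate 2 at 315 bp downstream, Nfyb has a peak in replicate 1 alone and Elk1 has none.

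The bases just upstream of the starts are shown for 5 genes on which the description turns. The sequences are from RefSeq (build GRCm38.p6), 250 bases ending at the base before a listed start, 5′ to 3′ on the gene's strand. Capitals mark matches on either strand to CCAAT (NF-Y), GGGCGG (SP1 and SP3), GCGCANGCG (NRF1), CCGGAAG (GABPA and ELK1) or TGACGTCA (CREB1 and ATF1). The first pair are the windows of Nfyc, which its peaks overlap on both sides of the summits (start 1 at chr4:120825742-120825991 and start 2 at chr4:120825210-120825459, minus strand).
Nfyc start 1: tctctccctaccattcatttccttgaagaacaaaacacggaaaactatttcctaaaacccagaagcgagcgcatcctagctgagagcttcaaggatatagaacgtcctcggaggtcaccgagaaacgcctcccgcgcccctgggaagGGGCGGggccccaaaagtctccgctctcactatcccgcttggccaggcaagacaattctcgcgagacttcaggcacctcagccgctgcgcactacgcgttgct
Nfyc start 2: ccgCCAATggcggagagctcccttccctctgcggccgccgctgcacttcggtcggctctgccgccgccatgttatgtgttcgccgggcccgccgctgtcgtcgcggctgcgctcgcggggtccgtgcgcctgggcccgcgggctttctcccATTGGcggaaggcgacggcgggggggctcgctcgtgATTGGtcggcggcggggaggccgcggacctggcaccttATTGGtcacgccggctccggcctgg
The next is the window of Nfya that lies mostly between its peaks (chr17:48409821-48410070, minus strand).
Nfya start 1: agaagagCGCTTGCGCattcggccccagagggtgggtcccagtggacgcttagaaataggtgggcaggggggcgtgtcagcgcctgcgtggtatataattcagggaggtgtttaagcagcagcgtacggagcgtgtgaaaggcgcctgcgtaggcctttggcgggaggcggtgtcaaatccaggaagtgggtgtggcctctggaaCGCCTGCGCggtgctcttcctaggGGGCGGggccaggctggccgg
The window of Nrf1 holds its summits (chr6:30047738-30047987, plus strand).
Nrf1 start 1: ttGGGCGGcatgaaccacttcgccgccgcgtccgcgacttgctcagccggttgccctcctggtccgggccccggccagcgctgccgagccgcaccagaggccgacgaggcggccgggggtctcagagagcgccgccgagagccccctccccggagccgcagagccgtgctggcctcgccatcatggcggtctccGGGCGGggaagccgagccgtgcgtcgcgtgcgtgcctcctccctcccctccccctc
The windows of Sp1 (chr15:102406066-102406315, plus strand) and Elk1 (chrX:20950609-20950858, minus strand) are shown as windows with motif matches that no peak of either list touched.
Sp1: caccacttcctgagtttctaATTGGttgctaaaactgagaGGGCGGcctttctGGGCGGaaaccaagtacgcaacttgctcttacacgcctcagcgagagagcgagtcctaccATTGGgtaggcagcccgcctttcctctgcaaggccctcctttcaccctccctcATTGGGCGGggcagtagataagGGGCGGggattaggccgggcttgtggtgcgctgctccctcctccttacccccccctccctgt
Elk1: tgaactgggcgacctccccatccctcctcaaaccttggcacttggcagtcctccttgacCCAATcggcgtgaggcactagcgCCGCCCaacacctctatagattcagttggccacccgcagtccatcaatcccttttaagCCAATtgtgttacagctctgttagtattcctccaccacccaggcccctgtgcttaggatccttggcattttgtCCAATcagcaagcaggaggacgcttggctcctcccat

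Nfyc, which encodes a histone-fold subunit of NF-Y, held the strongest of these peaks. In replicate 1 its fold was 18.5 (14.2 to 23.8) on 59 reads, and in replicate 2 it was 31.5 (26.2 to 37.6) on 122 reads. Both peaks ranked 3 in their lists, and by the worse of the ranks the region was in place 2 of 3111. The region (chromosome 4, 120825196 to 120826200) covers the first and second listed starts, which lie 532 bp apart; the peak of replicate 1 reached both and that of replicate 2 the first. The summits were 3 bp apart, at 120825555 and 120825558, between the starts: 186 and 183 bp downstream of the first, and 346 and 349 bp upstream of the second. Summits at most 3 bp apart were found in 75 of the 3111 shared regions (2.41%), a limit taken from Nfyc itself. The outermost listed start is 5838 bp inside the annotated gene end, so the peak is far from that end but not from a start. The CCAAT box is the element of the factor that Nfyc itself helps to form. It occurs 4 times in the window of the second start, at 21 to 247 bases upstream. Of 21263 such windows of protein-coding genes, 1.02% held at least 4. That limit was taken from this window, which held the most CCAAT boxes of any window of the listed genes. The summits lay 96 and 99 bp beyond that window's upstream edge, where no sequence was used here.

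Nfya, which encodes the subunit that contacts the CCAAT box, held a peak on each side of its start in both lists. Upstream (chromosome 17, 48410030 to 48410542), replicate 1 gave a fold of 5.09 (3.42 to 7.32) and rank 718, and replicate 2 gave 8.73 (6.53 to 11.5) and rank 147. Downstream (48409124 to 48409696), replicate 1 gave 5.86 (3.60 to 9.08) and rank 970, and replicate 2 gave 2.88 (1.92 to 4.18) and rank 5584 of 6403. So the lists differed in which flank had the higher fold, and the intervals overlapped in replicate 1 but not in replicate 2. By reads and by p the upstream peak was the stronger in both lists. It had 27 reads against 18 in replicate 1, and 50 against 26 in replicate 2. The downstream peak of replicate 2 stood on a background of 8.36 reads, which only 0.312% of the peaks of that list reached. In replicate 1 the upstream peak had the higher background, 4.50 reads (reached by 0.837% of that list) against 2.24 downstream. The gap between the flanking peaks was 394 bp in replicate 1 and 333 bp in replicate 2, and the first and second listed starts lie in it. Of the genes with a shared region, 155 of 3778 had 2 or more. The upstream summits also lay inside Oard1, a neighbour transcribed away from Nfya, between listed starts of that gene. They were 275 and 226 bp downstream of one Oard1 start (48410000) and 175 and 224 bp upstream of another (48410450). A peak there cannot be given to one gene of the pair. The window of the first Nfya start held 2 NRF1 motifs and 1 GC box and no CCAAT box.

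Nfyb, which encodes the other histone-fold subunit, separated the libraries. Replicate 1 listed a peak (chromosome 10, 82763720 to 82764248) with a fold of 8.32 (5.54 to 12.1) on 26 reads, rank 176 of 3943, its summit 214 bp downstream of the start. Replicate 2 listed no peak there, and its nearest lay 49187 bp beyond the gene. Among the 196 peaks of replicate 1 with a p at least as small, 4 (2.04%) had no overlapping peak in replicate 2; over the whole list 784 of 3943 (19.9%) had none. A read count of replicate 2 at this site was not used here, so how far below the threshold it fell is not known. The Nfyb promoter window held 3 GC boxes and no CCAAT box, and the gene lies within the annotated span of Hcfc2, whose nearest listed start is 64813 bp from the summit.

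Nrf1, which encodes nuclear respiratory factor 1, had nearly the same fold in both lists, 11.1 (7.81 to 15.3) on 35 reads in replicate 1 and 11.2 (8.11 to 15.2) on 40 reads in replicate 2. Its ranks were 38 and 148. The summits were 7 bp apart, 108 and 115 bp upstream of the first start and inside the window shown. The peaks were broad: 1079 bp in replicate 1 and 1712 bp in replicate 2, where it was the 39th widest, and the joined region (chromosome 6, 30047496 to 30049207) was the 44th widest of 3111. No NRF1 motif was found in either Nrf1 window. Neither list had a peak at the second start, 28333 bp downstream.

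Sp1, which encodes the founding GC-box factor, had its strong peak away from its start. The region (chromosome 15, 102405084 to 102405734) had folds of 8.11 (5.80 to 11.1) on 38 reads and 9.79 (7.81 to 12.1) on 82 reads, with ranks 68 and 29. The summits lay 899 and 823 bp upstream, and the peaks ended 633 and 582 bp short of the gene. Among 2398 shared regions with both summits within 1 kb of the nearest protein-coding start, 4 had both over 800 bp upstream of it. The Sp1 region is among the 4. The limit of 800 bp was set after the Sp1 values were seen. Regions with a summit beyond 1 kb were left out, so the count covers only the span from 800 bp to 1 kb. No listed start of another gene lay nearer than 39874 bp, and genes without a listed start were not searched. The backgrounds were 3.81 and 7.48 reads, reached by 3.37% and 1.02% of the peaks of the lists. Replicate 2 also listed a weak peak 315 bp downstream of the start (102406466 to 102406769), with a fold of 4.87 (3.10 to 7.32) and rank 3136, and replicate 1 listed none. The 250 bases before the start held 4 GC boxes and 3 CCAAT boxes, with 1 overlap between the kinds, and no peak of either list covered them.

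Sp3, which encodes a paralogue of SP1, had the widest region of the 10 genes (chromosome 2, 72978713 to 72981048), 2336 bp and the 7th widest of 3111. It was joined from 2 peaks in each list, around starts 1165 bp apart. At the second start, replicate 1 had a fold of 6.47 (4.07 to 9.83) and rank 603, and replicate 2 had 7.52 (5.25 to 10.5) and rank 540, but the summits were 385 bp apart, 432 and 47 bp downstream. At the first start, the folds were 3.998 (2.21 to 6.75) and 6.10 (4.40 to 8.26), with ranks 3488 and 579, and the summits were 79 bp apart, 200 and 279 bp upstream. The lists thus placed the upstream summits closer together than the downstream ones. The upstream summits also lay inside the annotated lncRNA Sp3os. The second window held 5 GC boxes, the most of any window of the listed genes. At least 5 were found in 2.68% of all windows, a limit taken from this one. The first window held 2 GC boxes, a CCAAT box and an ETS motif.

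Gabpa encodes the DNA-binding subunit of GA-binding protein, an ETS factor. Its region (chromosome 16, 84834529 to 84836040) had folds of 5.86 (3.60 to 9.08) on 18 reads and 6.67 (4.70 to 9.20) on 35 reads, with ranks 970 and 650. The summits were 35 bp apart, 358 and 393 bp downstream of the Gabpa start. They were also 143 and 108 bp downstream of a start of Atp5j, an ATP synthase gene on the other strand whose annotated body overlaps that of Gabpa. The peaks of both lists covered both of these starts, with the summits nearer to that of Atp5j. The promoter window of Gabpa held 1 ETS motif, 87 to 93 bases before the start, a match found in 8.98% of windows.

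Elk1, which encodes an ETS factor that acts with serum response factor, held no peak. The nearest peak lay 7651711 bp beyond the gene in replicate 1 and 11128 bp beyond it in replicate 2, where its fold was 4.11. Elk1 is on chromosome X, where a shared region was found at 17 of 963 protein-coding genes (1.77%); the mice were male, with a single X. Its window held 3 CCAAT boxes and 1 GC box, and no ETS motif. A missing peak means that the caller's threshold was not passed at this depth, not that RUVBL2 was absent.

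Creb1, the main cAMP-responsive factor of neurons, had peaks near the list median of 16 reads in replicate 1. Its peak in replicate 2 was above the median of 22. Replicate 1 listed 2 peaks, with folds of 5.23 (3.12 to 8.30) on 16 reads, 341 bp upstream, and 4.93 (2.90 to 7.93) on 15 reads, 263 bp downstream. Their ranks were 1741 and 1967 of 3943. Replicate 2 listed 1 peak across both sites, with a fold of 7.96 (5.38 to 11.4) on 28 reads, rank 692 and a summit 274 bp downstream. That summit was 11 bp from the downstream summit of replicate 1 and 615 bp from the upstream one. The joined region was chromosome 1, 64532271 to 64533576. Atf1, its close relative, had single peaks, with folds of 7.28 (4.81 to 10.6) on 25 reads and 8.504 (5.83 to 12.02) on 30 reads, and ranks 291 and 494. Its summits were 77 bp apart, 261 and 184 bp upstream, in a region from 100227233 to 100228428 on chromosome 15. Neither gene's window held the full cAMP response element, a match in 1.92% of windows.

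**Figure D2:**
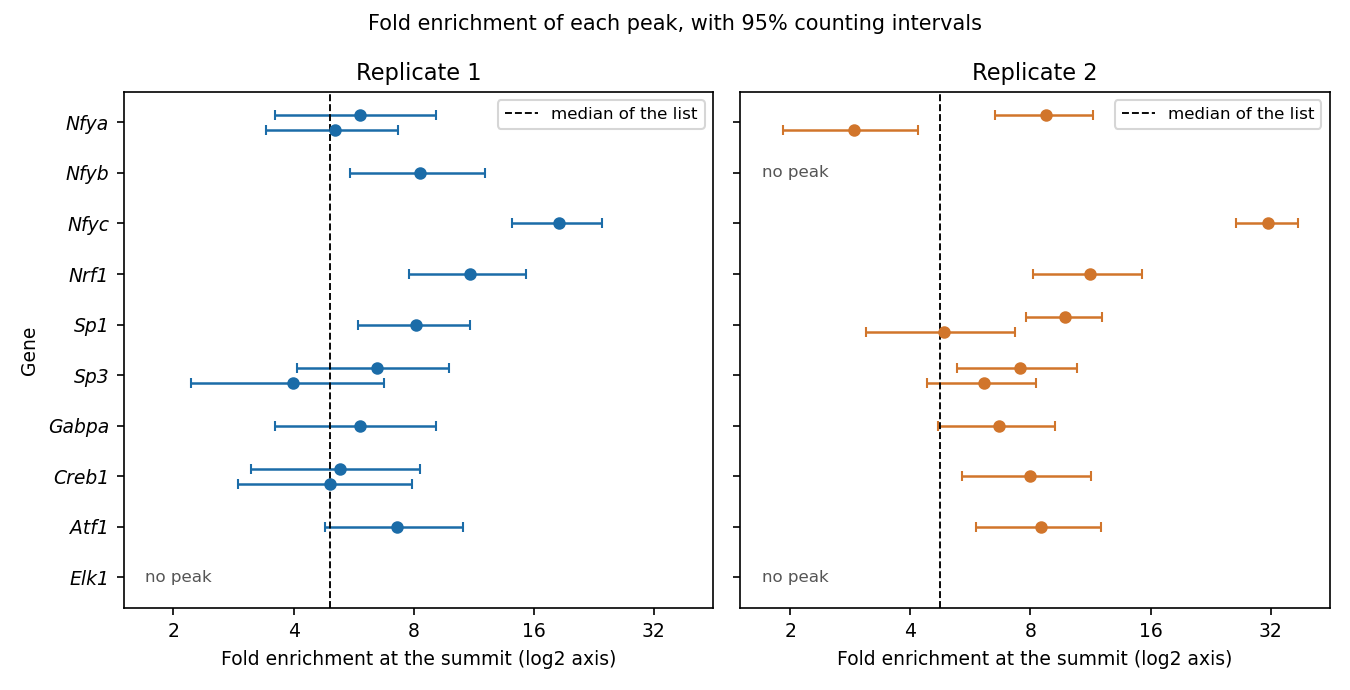
Fold enrichment at the summit of every peak of the 10 genes (log2 axis), replicate 1 at left and replicate 2 at right; bars are exact 95% Poisson intervals of the pileup and the dashed line is the median of all peaks of the list (4.93 and 4.74). Nfyc stands highest in both lists, at 18.5 and 31.5, and the downstream Nfya peak of replicate 2 lies lowest, at 2.88.

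By the worse of the ranks, the best region of each gene came in places 2 (Nfyc), 36 (Sp1), 82 (Nrf1), 242 (Atf1), 302 (Sp3), 350 (Nfya), 504 (Gabpa) and 929 (Creb1) of 3111. The median of these worse ranks was 548.5, against 2739 over all shared regions. The genes were chosen with these ranks in view, so the contrast is a description only. The first median also leaves out the downstream region of Nfya, with a worse rank of 5584, while the other counts every region. The order of places is by p, so the intervals in the plot of folds bear only on the order by fold. In replicate 1, the interval of Nfyc overlapped that of Nrf1 (14.2 to 23.8 against 7.81 to 15.3), and the intervals of the highest fold of each of the other 8 genes with a peak all overlapped one another. In replicate 2, the interval of Nfyc lay above every other one. Among the other 7 genes the intervals of the highest folds all overlapped one another, from 6.67 in Gabpa to 11.2 in Nrf1. The 3 genes whose shared regions were most like that of Nfyc in fold, by the distance of log2 folds over the 2 libraries, were Kmt2e (13.4 and 34.5, distance 0.49), Epc1 (14.2 and 23.9, 0.55) and Hexim2 (18.2 and 18.8, 0.74).

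**Figure D3:**
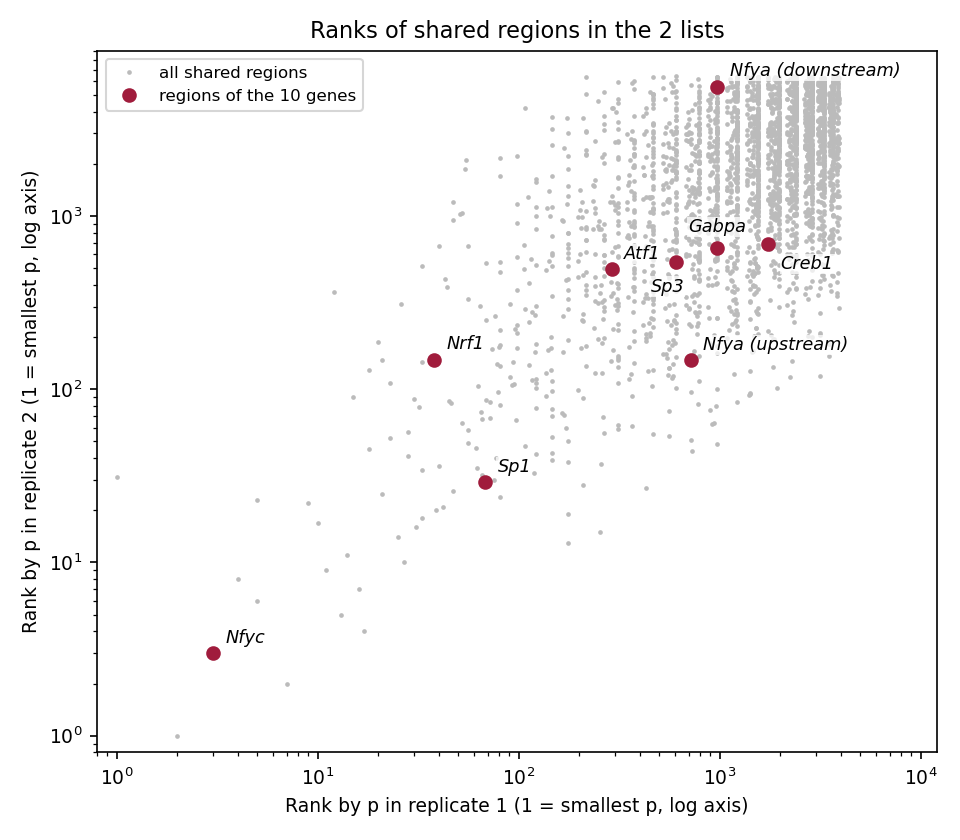
Rank by p of each shared region in replicate 1 (horizontal) and replicate 2 (vertical), both on log axes, with 1 for the smallest p; grey points are all 3111 shared regions and red points the 9 regions of the 10 genes, each at its pair of overlapping peaks with the smallest summed rank. Nfyc is at 3 and 3, and the downstream region of Nfya at 970 and 5584 is far weaker in replicate 2.

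Summits agreed to a median of 62.5 bp over the best regions of the 8 genes (3 to 615 bp), against 93 bp over all shared regions. The best regions had a median width of 1251 bp, against 715 bp over all. Both contrasts set best regions against every region. With these values in view when the genes were chosen, they are descriptions only. Of the single peaks, 7 of 23 were wider than 1 kb, in Nrf1, Sp3, Gabpa and Atf1. No share of all peaks over 1 kb was computed. The narrowest of the 7 in replicate 1 (1079 bp) ranked 93 by width among 3943 peaks. In replicate 2 the narrowest (1139 bp) ranked 344 among 6403. Widths were also in view when the genes were chosen, so this count is a description. Of the 9 regions, 4 had both summits upstream of the nearest start (Nfya, Nrf1, Sp1 and Atf1), 4 had both downstream (Nfya, Nfyc, Sp3 and Gabpa) and that of Creb1 had 1 on each side. For Creb1 the side and the 615 bp rest on the pair of smallest summed rank. The other overlapping pair of Creb1 had both summits downstream, 11 bp apart. The side given for Sp3 rests on such a pair as well. At the first Sp3 start the summits of both lists lay upstream, 79 bp apart. Among all 2398 regions near a start, 19.6% had both summits upstream, 61.9% downstream and 18.5% on each side. For these, the start was that of any protein-coding gene nearest to the replicate 2 summit. For the 9 regions it was a start of the gene itself, so the shares are not measured alike. The farthest of the 23 peaks from its gene was the 633 bp of Sp1 in replicate 1, well inside the 3 kb limit. Just outside the limit, the nearest peaks to a gene were those of Elk1 (11128 bp) and Creb1 (12346 bp), both in replicate 2, so no peak lay near the limit.

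The sequence of the promoter windows was not used to list the genes. The 10 genes had 16 listed starts. Of the 16 windows, 9 overlapped a shared region, while 13.1% of all 21263 windows did. The choice of the genes by their peaks largely fixes that count of 9. The GC content of the 16 windows ran from 34.8% to 77.6% with a median of 64.6%, against 64.4% in all windows that overlapped a shared region and 55.6% in all windows. No peak of either list touched the windows of the distant inner starts of Nfya, Nfyc and Nrf1, with GC contents of 34.8%, 44.8% and 43.2%, or that of the second Nfya start, with 65.2% and 22 CpG dinucleotides. At the outermost starts, the windows of Sp1 and Elk1 held 11 and 7 CpG dinucleotides, fewer than the 18 to 33 of the other 8 genes. GC boxes were found in 11 of the 16 windows, from 9 genes, all but Gabpa. The GC box occurred in 66.8% of windows in shared regions and in 42.6% of all windows. CCAAT boxes were found in 7 of the 16 windows, from 6 genes (Nfya, Nfyc, Nrf1, Sp1, Sp3 and Elk1), with 29.2% of windows in shared regions and 35.4% of all windows holding one. In Nfya and Nrf1 the box was at an inner start alone, with no peak there. NRF1 motifs occurred in 2 windows, both of Nfya (16.1% of windows in shared regions and 7.08% of all). These windows belong to starts 66 bp apart and overlap, so 1 NRF1 match and the GC box are counted in each. The ETS motif occurred in 2 windows, of Sp3 and Gabpa (19.9% and 8.98%), and the cAMP response element in none (3.95% and 1.92%). A motif of the gene's own factor was found in 5 of the 10 genes: Nfya (at its inner start alone), Nfyc, Sp1, Sp3 and Gabpa. Genes had from 1 to 3 windows, and no share over all genes was computed for this count. The CCAAT and GC boxes are common in all windows, so it is not read as a result. These matches are descriptions of sequence and not measured binding of those factors, and windows rich in GC hold GC-rich motifs more often.

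**Figure D4:**
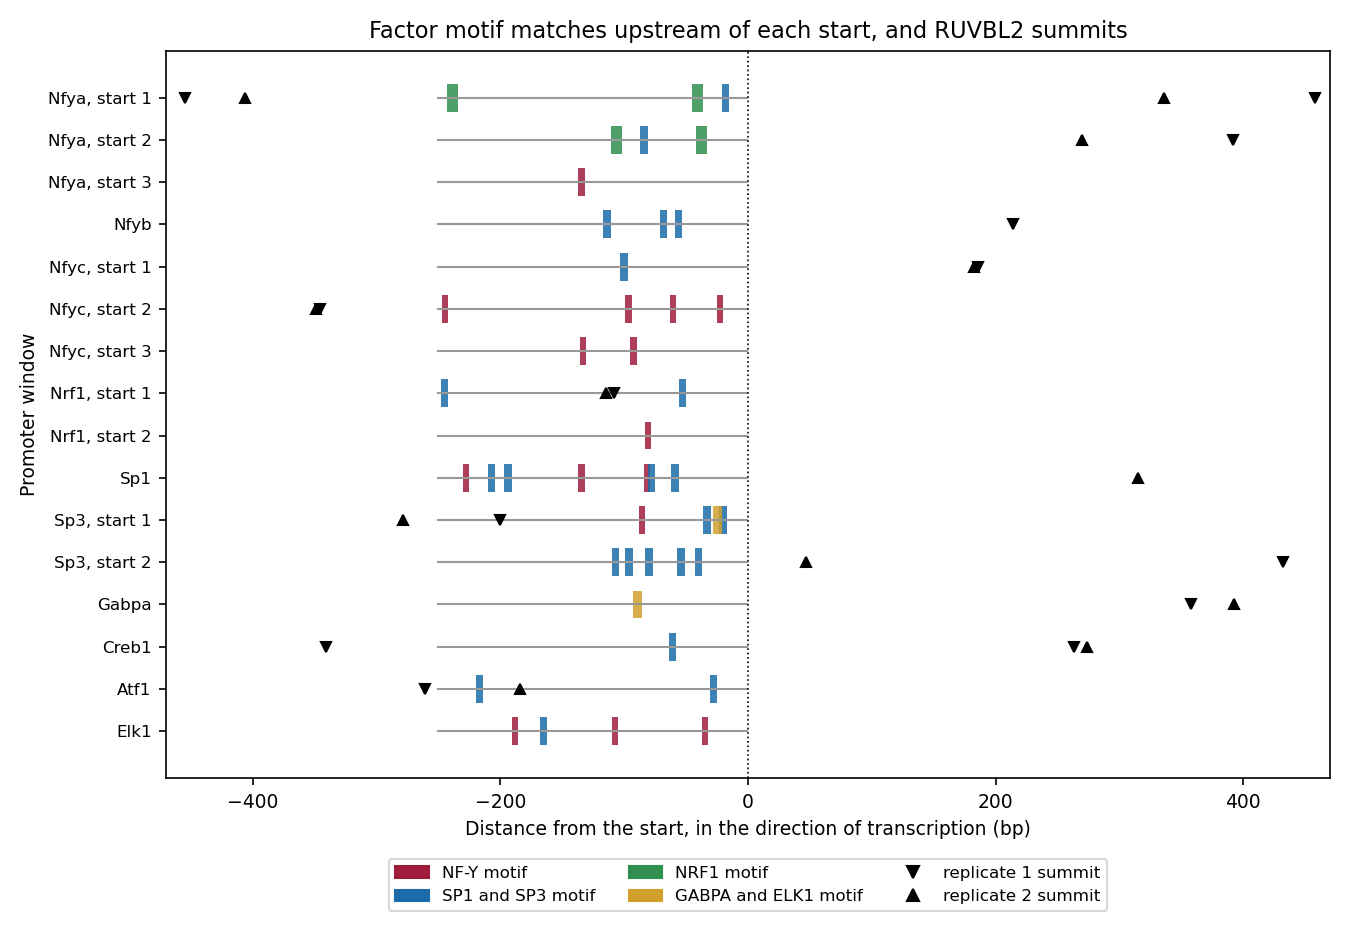
Motif matches (coloured blocks) in the 250 bases before each of the 16 listed starts, along the distance in bp from the start, with the RUVBL2 summits of replicate 1 (downward triangles) and replicate 2 (upward triangles) that lie within the plotted span. The window of the second Nfyc start holds 4 NF-Y motifs and that of Sp1 holds 3 beside 4 GC boxes, and in Nrf1, Sp3 and Atf1 a summit falls inside a window.

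Related promoter factors were taken from a list of 52 genes, also chosen with earlier results of these data known. Of these, 28 (53.8%) held a shared region, 33 a peak in replicate 1 and 38 in replicate 2. The shares over all protein-coding genes were 17.3%, 21.0% and 32.8%. Of 12 ETS genes and GABP subunits, 7 held a shared region. Gabpb1, which encodes the partner subunit of GABPA, had folds of 8.94 and 12.8, Elk4 9.56 and 7.30, Gabpb2 5.69 and 7.57, and Elf1 5.98 and 7.96. Elk3, the other close relative of Elk1, had no peak in either list. Both other SP genes held a region, Sp4 with folds of 6.44 and 5.79 and Sp2 with 4.01 and 5.49. Of 13 genes of CREB relatives and coactivators, 7 did. The histone acetyltransferase gene Ep300 had folds of 10.1 and 11.02, and Atf4, which encodes a factor of the stress response, 11.7 and 10.7. Crebbp, the paralogue of Ep300, had 6.47 and 4.62, and Crebl2 5.04 and 4.43. Of 25 other promoter factors, 12 did, led by Ctcf, the insulator protein (7.71 and 8.27), Yy1 (6.78 and 9.70), Usf2 (7.71 and 7.73) and Zfp143 (5.21 and 12.5). The median worse rank of the 28, by the best region of each, was 2079.5, against 2739 over all shared regions.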

How the data were processed

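ChIP-seq of RUVBL2 gave 1 peak list and 1 summit list for each of the 2 ChIP libraries; the input libraries were not analysed here. Software listed in the submitters' processing notes, with no role or order, is MACS2 2.1.0, Bowtie2 2.3.4.1, Trimmomatic 0.33, bcl2fastq 2.17 and ChIPseeker, with the build GRCm38; the settings and the control sample of peak calling were not given in the sources used here. The deposited values are a fold enrichment (a ratio over the caller's background), −log10 p and −log10 q per peak, and a whole-number score (the −log10 q times 10, truncated); the summit's place within the peak is also given. The total read number is not given, so depth was taken from summit pileups: a whole number solved from fold and p matched 100% of peaks in both lists, within a relative tolerance of 0.0001. The step was tested on simulated data. Analyses used Python 3.11.15, pandas 2.3.3 and scipy 1.17.1.

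Peaks of the lists that overlapped by at least 1 bp were joined. Genes came from RefSeq GRCm38.p6; rows lying wholly in the unassembled 3 Mb at the chromosome starts (Y excepted) were dropped. Starts, strands and sequences came from a RefSeq promoter table that lists starts for 17492 of the 21779 protein-coding genes. Exons and UTRs were not assigned. Motifs were searched on both strands. The genes and lists were chosen with earlier results of these data known. Named genes were all 10, the best 4 of each related class by worse rank, and the 3 most like Nfyc in fold; Elk3 and the genes of the closing section were chosen after their values were seen.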

Additional observations from a re-analysis of the deposited data

How the results depend on the processing

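All but 2 of the alternative counts stayed within 1.5 times the reported one. The median summit distance of 62.5 bp was 76.5 bp over all overlapping pairs and 62.5 bp at a −log10 q of at least 5. The count of the 10 genes with a shared region ranged from 6 to 9 around the reported 8. It was lowest, without Sp3 and Creb1, when the overlap had to cover 50% of both peaks. Creb1 was also lost with the 1000 peaks of smallest p in each list, and Sp1 with the gene body alone. At a −log10 q of at least 5 all 8 remained, but Nfya kept 1 of its 2 regions. The related genes with a shared region fell from 28 to 17 at that q and to 11 with the 1000 best peaks. With the peaks of 1 library alone, the counts were 8 and 9 for the 10 genes and 38 and 33 for the related genes. No paired analysis was possible because the results came from no test, and the 2 lists used are both of ChIP libraries, with no input values analysed here. Depth limits what is shown: the summits of the 10 genes rested on 12 to 59 reads in replicate 1, where 55.5% of all peaks stood within 1% of the lowest background, so equal folds recur.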

Other observations

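Of 6 E2F genes, which encode cell cycle factors, replicate 2 listed peaks at 4 (32.8% of protein-coding genes had one) and replicate 1 at 2 (21.0%). E2f5 was the only one with a shared region (folds 4.17 and 3.69), which 17.3% of protein-coding genes had. Those of E2f1 (3.84, rank 5720 of 6403), E2f3 (3.76, rank 5678) and E2f4 (4.07, rank 4130) were low in the longer list, and E2f6 had a fold of 4.51 (rank 1894 of 3943) in replicate 1 alone. Atf2, Atf6 and Atf7, relatives of Atf1, likewise had peaks in replicate 2 alone, with ranks of 1151, 4130 and 5497. Of 3 related genes on chromosome X, Hcfc1 held a shared region, with folds of 5.86 (rank 970) and 9.88 (rank 259). Hcfc1 encodes a host cell factor that binds several promoter factors. Its summits were 741 bp apart, and none of its listed starts had a summit of each list within 1 kb. Elf4 and Zbtb33 held no peak. Over all protein-coding genes of chromosome X, 1.77% held a shared region.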
